A study of Mus musculus with 35 samples.

Results

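Mycl-deficient type 1 conventional dendritic cells (cDC1) of the spleen were compared 5 h after poly IC and at rest. The 5 arrays titled poly IC Activated, LMYC KO3 were set against the 5 titled Steady State, LMYC KO2, so 10 of the 35 arrays of the series carry the comparison. Both groups were homozygous for MyclGFP, an allele with green fluorescent protein at the Mycl locus. The mice of the KO3 group had received 100 µg of poly IC intraperitoneally 5 h beforehand. Further groups served as gauges: 5 arrays of Mycl+/+ cells 5 h after poly IC (WT3), 5 of resting Mycl+/+ cells (WT2) and 4 of resting MyclGFP/GFP cells from another set (KO1). The remaining arrays, of MyclGFP/+ cells and of an Mxd1 experiment, were not used. All cells were purified by flow cytometry, and the labels do not give the age, the sex or whether each array was a different mouse.

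Poly IC is a synthetic double-stranded RNA that is sensed by the endosomal receptor TLR3, which cDC1 carry at high levels, and by the cytosolic helicase MDA5. Both routes lead to type I interferon, whose receptor switches on the interferon-stimulated genes, while the cells mature, raise costimulatory molecules and leave their resting state. MYCL is a MYC family member that is expressed in resting cDC1. MYC proteins pair with MAX and promote the synthesis of ribosomes and nucleotides, and MXD proteins pair with MAX as repressors.

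Values are log2 levels per transcript cluster minus the median of the array, so 0 is the middle of an array and each step of 1 is a doubling. They are relative to the other transcripts of the same array, and within bulk samples fewer cells of a type and less RNA per cell cannot be told apart. The arrays with the numbers 2 and 3 in their titles had been normalized as separate sets. Exactly equal values occurred on average 13.62 times between 2 arrays of set 3 and 14.69 times between 2 of set 2, but 0.36 times between KO3 and KO2 arrays. Treatment and set coincide and cannot be told apart, so no p-value is given for KO3 against KO2. A gene is said to have risen or fallen only where the group means differed by at least 2-fold and no KO3 array overlapped a KO2 array.

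Mycl itself was measured first. In the poly IC-treated MyclGFP/GFP arrays 1 to 5 it lay at 0.31, 0.49, 3.41, 0.01 and 0.64, against 0.19, 0.22, -0.07, -0.06 and 0.08 in the resting MyclGFP/GFP arrays. Mycl+/+ cells lay between 3.50 and 4.30 after poly IC and between 3.97 and 4.22 at rest. Array 3 of the KO3 group, at 3.41, was thus far from the other 4 and close to Mycl+/+ cells, which goes against its label. Counts of genes that rose or fell, over all genes and by list, are also given without it. Of all genes, 8 lay at least 2-fold from the mean of the other 4 KO3 arrays in it, against 12, 1, 14 and 8 in arrays 1, 2, 4 and 5. Beside Mycl, Ndufs5, a complex I subunit on the same chromosome that was picked after its values were seen, stood at 2.50 there and between 0.81 and 1.52 in the other KO3 arrays.

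Clec9a, Xcr1, Irf8 and Batf3, given as examples of cDC1 markers, were high in both groups. The mean of all 25 cDC1 identity genes measured was lower after poly IC. It lay between 4.127 and 4.339 in KO3 arrays and between 4.784 and 4.931 in KO2 arrays, and 7 of the 25 fell, as given below. Clec9a, a receptor for dead cells, averaged 5.49 ± 0.05 after poly IC and 5.69 ± 0.09 at rest (SD, n = 5 each). Xcr1, the chemokine receptor that defines the subset, averaged 4.85 ± 0.22 after poly IC and 5.51 ± 0.10 at rest. Irf8, the lineage transcription factor, averaged 6.07 ± 0.20 after poly IC and 6.63 ± 0.11 at rest, and its partner Batf3 averaged 3.94 ± 0.07 after poly IC and 4.52 ± 0.13 at rest. The B cell receptor gene Cd79a averaged -1.26 after poly IC and -1.35 at rest, and the mean of all 10 B cell markers measured lay between -0.394 and -0.140 in KO3 arrays and between -0.443 and -0.297 in KO2 arrays. Other cell types differed more: the mean of 8 neutrophil markers lay between 0.282 and 1.360 in KO3 arrays and between -1.035 and -0.907 in KO2 arrays. Array medians before centring were 5.47 to 5.52 in KO3, 5.55 to 5.60 in KO2 and 6.53 to 6.55 in KO1. Pearson correlations over genes were 0.99 to 0.994 within KO3, 0.99 to 0.996 within KO2 and 0.893 to 0.923 between them.

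Of 13815 autosomal genes tested, 741 rose and 682 fell after poly IC in MyclGFP/GFP cells, which is 5.36% and 4.94% of genes, or 10.3% together. The rises were the larger ones: 187 genes rose and 52 fell by at least 4-fold, 56 rose and 4 fell by at least 8-fold, and 19 rose by at least 16-fold with no fall of that size. Without KO3 array 3 the counts were 738 and 734 (5.34% and 5.31%, 10.7% together), of which 718 rises and 671 falls were called with all arrays too. The smallest called rise was Hsd11b1 at 1.0019 and the largest one just outside was Nlrc5 at 0.9995, while Tysnd1 at -1.0001 and Tatdn3 at -0.9997 bracketed the threshold for falls.

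Resting MyclGFP/GFP cells of KO2 and KO1 were compared under the same rule, as a gauge of a shift between sets without poly IC. This is not the pair of sets that KO3 and KO2 span. No resting array belonged to the set of KO3, so a shift between the sets of KO3 and KO2 was not measured. KO2 minus KO1, both resting, called 83 genes higher and 73 lower (0.601% and 0.528%, 1.13% together), 5 of them past 4-fold and 0 past 8-fold, with a largest shift of 2.94. With KO1 as the resting group, 772 genes were called higher and 416 lower (5.59% and 3.01%, 8.6% together). This second comparison uses the same 5 poly IC arrays, so it is no independent repeat. Where a gene described below as risen or fallen was under 2-fold against KO1, or the median of a list moved with KO1, both values are given. Across all genes tested the difference had a median of -0.04 and an SD of 0.67 against KO2, and KO2 minus KO1 had an SD of 0.35.

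**Figure D1:**
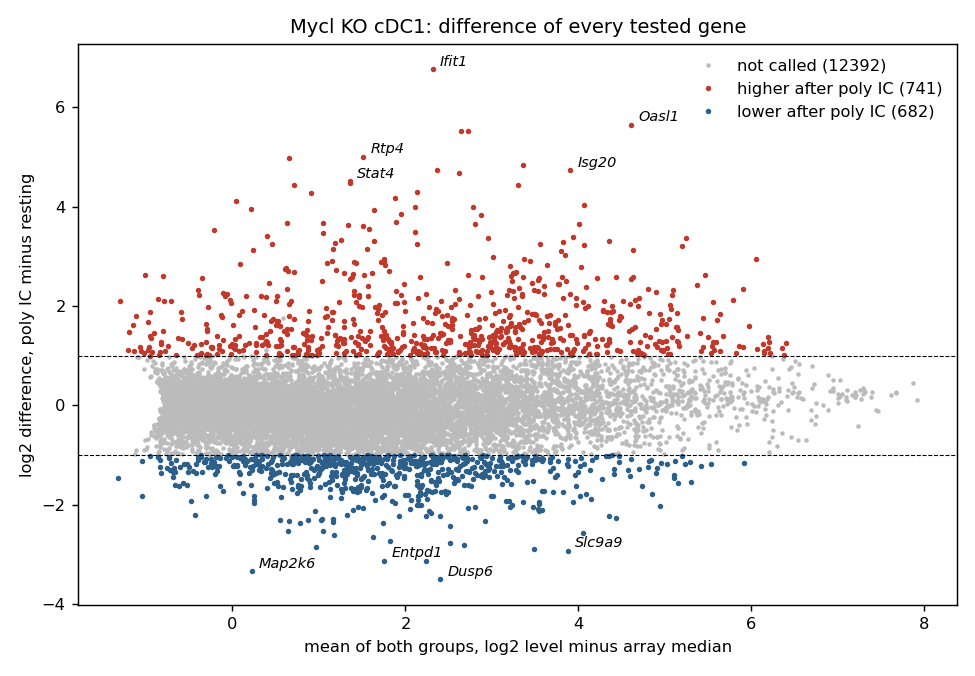
Each point is 1 of 13815 genes, with its mean centred log2 level over the KO3 poly IC and KO2 resting arrays on the x axis and the difference, poly IC minus resting, on the y axis. Red marks the 741 genes called higher, blue the 682 called lower and grey all others, and the dashed lines stand at a 2-fold difference. The rises reach 6.76 and the falls -3.50.

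The largest rises were interferon-stimulated genes, with antiviral effectors at the top. Ifit1, whose protein binds viral RNA lacking a self cap, lay at 6.02, 5.80, 5.50, 5.42 and 5.74 after poly IC and at -1.20, -1.10, -0.88, -1.09 and -1.05 at rest. It rose by 6.76, a 108-fold difference, and the groups were separated by more than 6 log2 units. Oasl1, an oligoadenylate synthetase-like protein that restrains translation of Irf7, lay at 7.48, 7.61, 7.40, 7.38 and 7.29 in KO3 arrays and at 1.83, 1.55, 1.36, 1.96 and 2.26 in KO2 arrays, a 49.9-fold rise. Rsad2, the radical enzyme viperin, lay at 6.07, 5.99, 5.68, 5.59 and 5.57, against 0.67, 0.86, 0.93, 1.01 and 1.23 at rest, a 28.7-fold rise. In each of these genes the lowest treated array was far above the highest resting one.

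Others among the 12 largest rises were Ifit2 (5.53) and Ifit3 (5.53), which act with Ifit1, the chaperone gene Rtp4 (5.01), the PYHIN family member Ifi213 (4.98), the membrane protein gene Ms4a4c (4.73), the exonuclease gene Isg20 (4.73), Oas3 (4.67), which makes the activator of RNase L, and the carbonic anhydrase gene Car13 (4.48). Against KO1 these 8 differences were 5.68, 5.84, 5.53, 5.40, 4.99, 5.14, 5.06 and 4.85. The remaining one was Stat4, a transducer of interleukin 12 and interferon signals, at 3.69, 4.15, 3.57, 3.50 and 3.13 after poly IC and -0.72, -0.97, -1.09, -1.16 and -0.55 at rest. Its difference of 4.51 was 2.94 against KO1, whose arrays lay at 0.71, 0.38, 0.64 and 0.93, so its direction was the same against both resting groups and its size was not.

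The promoters of 6 of these 12 genes are shown because they hold the letters of the interferon-stimulated response element, through which type I interferon acts on its target genes. The motif searched was GAAA, any 2 bases and GAAA again, on either strand, in RefSeq promoters of build GRCm38.p6 from 250 bases before to 50 after an annotated start. Of the 12 genes, 10 had a promoter in that collection. Stat4 had 2, of which 1 held the motif: the one shown, whose start lies inside the gene. The start used for Ifit3 also lies inside its listed gene span. Each line gives 100 bases 5′ to 3′ on the strand of the gene, with the motif in capitals.
Ifit1, chr19:34640759-34640858, plus strand: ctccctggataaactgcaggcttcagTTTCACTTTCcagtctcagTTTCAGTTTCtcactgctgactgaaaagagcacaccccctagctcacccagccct
Ifit3, chr19:34583362-34583461, plus strand: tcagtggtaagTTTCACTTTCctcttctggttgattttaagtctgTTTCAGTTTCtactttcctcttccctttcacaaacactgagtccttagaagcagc
Ifi213, chr1:173599291-173599390, minus strand: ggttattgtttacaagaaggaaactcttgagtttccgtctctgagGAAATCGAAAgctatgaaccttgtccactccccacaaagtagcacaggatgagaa
Rsad2, chr12:26456518-26456617, minus strand: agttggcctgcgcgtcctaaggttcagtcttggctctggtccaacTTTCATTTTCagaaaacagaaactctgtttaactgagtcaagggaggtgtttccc
Oas3, chr5:120777680-120777779, minus strand: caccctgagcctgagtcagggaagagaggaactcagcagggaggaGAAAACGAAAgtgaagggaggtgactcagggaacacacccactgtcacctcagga
Stat4, chr1:52008098-52008197, plus strand: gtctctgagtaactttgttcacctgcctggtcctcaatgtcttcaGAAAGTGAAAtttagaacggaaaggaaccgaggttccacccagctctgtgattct

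The share of promoters with this motif followed the size of the rise. It was in 14 of 47 genes that rose by at least 8-fold (29.8%), 15 of 96 that rose by 4- to 8-fold (15.6%) and 39 of 452 that rose by 2- to 4-fold (8.63%). Genes that fell had it in 16 of 550 cases (2.91%), genes not called in 315 of 9788 (3.22%) and all 32851 promoters in 3.44%. Of 23 antiviral effectors with a promoter, 13 held it (56.5%). The gamma-activated site, searched as TTCNNNGAA on both strands, was in 8.91% of genes that rose and 8.3% of all promoters. By size of the rise it was in 6.38%, 11.5% and 8.63% of genes that rose by at least 8-fold, 4- to 8-fold and 2- to 4-fold, and it was in 6 of the 23 antiviral effectors (26.1%). These are letter matches in a short window and not measured binding sites.

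The counts of each list from here on are to be read beside the 5.36% of all genes tested that rose and the 4.94% that fell. List counts are out of the genes measured, and a measured gene below the filter level was not tested and could not be called. Counted over whole lists, 28 of 29 antiviral effectors rose and 0 fell, with a median difference of 3.25 (3.48 against KO1). The other one, Ifi44l, was below the filter level, at -1.27 ± 0.13 after poly IC and -1.62 ± 0.10 at rest. The mean over these 29 genes was 4.317 to 4.695 in KO3 arrays and 0.954 to 1.280 in KO2 arrays. All 8 guanylate-binding and immunity-related GTPases measured rose (median 1.97, and 2.40 against KO1), which attack vacuoles of intracellular pathogens, with Iigp1 by 3.27, Gbp5 by 3.11 and Gbp9 by 2.44. Of 5 genes of conjugation to ISG15, a ubiquitin-like modifier, 4 rose: the ligase genes Herc6 (3.65) and Trim25 (1.83), the deconjugating protease gene Usp18 (3.31) and the conjugating enzyme gene Ube2l6 (2.95). Trim25 was at 0.78 against KO1, under the threshold.

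The receptor and kinase genes upstream moved less than these targets. Of 11 genes of interferon signal transduction 3 rose and 1 fell, with a median of 0.18 (0.40 against KO1). Irf7, the factor that amplifies interferon production, lay at 7.62, 7.59, 7.52, 7.51 and 7.37 after poly IC and at 4.30, 4.48, 4.75, 4.56 and 4.84 at rest, a 7.66-fold rise. Stat2 rose by 2.28 and Irf1 by 1.72, while Ifngr1, the ligand-binding chain of the interferon gamma receptor, fell by 1.57. The receptor gene Ifnar1 differed by 0.51 and Irf9 by 0.16, neither of which passed.

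Among sensors of double-stranded RNA the cytosolic ones rose and the endosomal one did not. The cytosolic helicase gene Ddx58 (RIG-I) lay at 4.67, 4.46, 4.12, 4.11 and 4.05 after poly IC, against -0.04, -0.17, 0.05, 0.05 and 0.01 at rest, a 19.7-fold rise. Ifih1, which encodes MDA5, rose by 3.25 and Dhx58, which encodes its regulator LGP2, by 2.81. Tlr3 fell by 1.10, to 4.29 ± 0.07 after poly IC against 5.39 ± 0.11 at rest, and was at -0.65 against KO1, under the threshold. The adaptor genes were not called, with Mavs at -0.07 and Ticam1, the TLR3 adaptor, at -0.69, and the whole list of 12 had 4 rises, 1 fall and a median of 0.20 (0.58 against KO1).

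**Figure D2:**
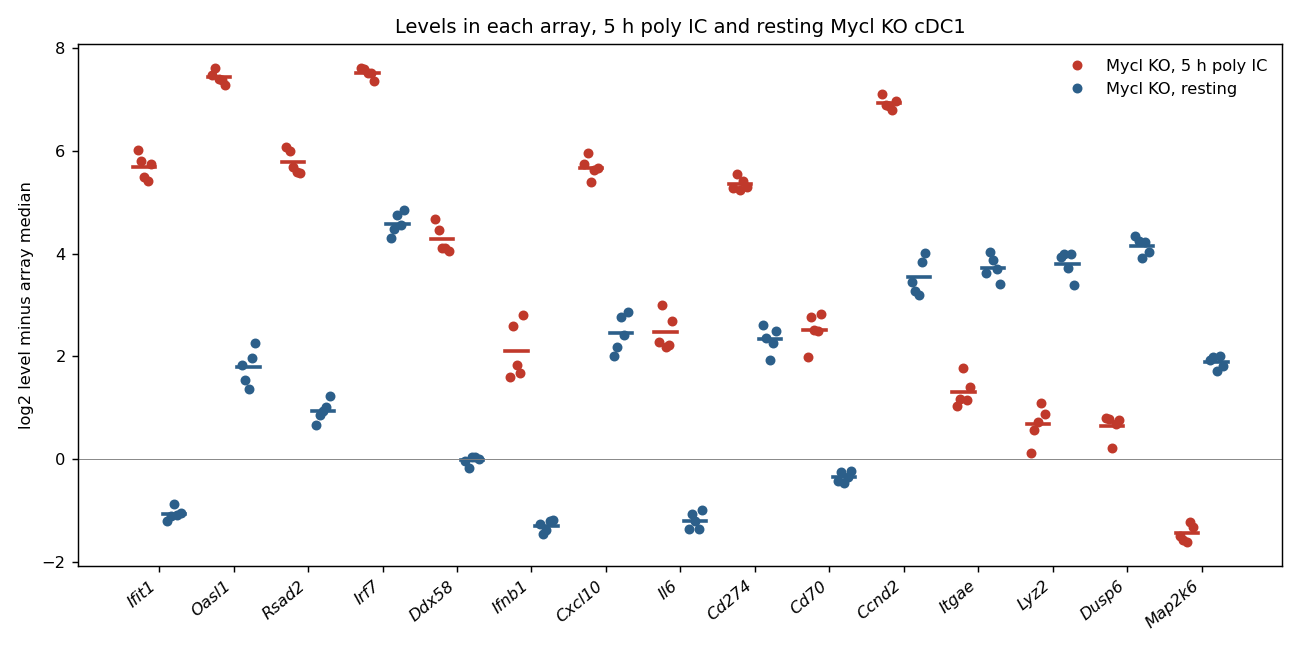
Centred log2 levels (y axis) of 15 genes (x axis), with the 5 KO3 poly IC arrays in red on the left of each pair and the 5 KO2 resting arrays in blue on the right, and a line at each mean. For each gene the groups lie apart, with Ifit1 at 5.42 to 6.02 after poly IC against -1.20 to -0.88 at rest and Dusp6 at 0.22 to 0.80 against 3.92 to 4.34.

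Cytokine genes rose in 10 of 17 cases and fell in 2, with a median of 1.06. Ifnb1, the interferon beta gene, lay at 1.60, 2.59, 1.83, 1.68 and 2.80 after poly IC and at -1.26, -1.45, -1.39, -1.21 and -1.19 at rest, a 10.6-fold rise. Il6, an inflammatory cytokine, lay at 2.28, 2.99, 2.19, 2.21 and 2.69, against -1.36, -1.07, -1.21, -1.37 and -0.998 at rest, a 12.8-fold rise. For both genes arrays 2 and 5 were the highest of the treated ones. Il27, a cytokine that acts on T cells, rose by 2.86, the interleukin 1 receptor antagonist gene Il1rn by 2.58 and Il15, which sustains natural killer and memory T cells, by 2.03. Il12b, the shared subunit of interleukins 12 and 23, was already high and was not called, at 5.69 ± 0.28 after poly IC and 5.00 ± 0.28 at rest. Tnf fell by 1.10 and Il1b by 1.23 against KO2, but against KO1 they were at 0.47 and -0.27, and the 2 resting groups themselves differed by 1.58 and 0.96.

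Of 16 chemokine and chemokine receptor genes 6 rose and 1 fell (median 0.30). Cxcl10, a ligand of CXCR3 on T cells, lay at 5.74, 5.95, 5.39, 5.62 and 5.66 after poly IC, against 2.00, 2.19, 2.76, 2.41 and 2.86 at rest, a 9.38-fold rise. A second ligand of that receptor, Cxcl11, rose by 2.74 and the T cell attractant gene Ccl5 by 2.59. Ccr7, which guides dendritic cells to T cell zones, rose by 1.26, to 7.03 ± 0.09 after poly IC against 5.77 ± 0.24 at rest. Ccr2, a receptor for monocyte chemokines, fell by 1.96.

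Ligands for T cells rose on both the activating and the inhibitory side, in 9 of 14 cases with 1 fall (median 1.86, and 1.48 against KO1). Cd274, which encodes PD-L1, lay at 5.28, 5.55, 5.24, 5.41 and 5.29 after poly IC and at 2.61, 2.35, 1.94, 2.26 and 2.48 at rest, an 8.14-fold rise, and Pdcd1lg2, which encodes PD-L2, rose by 2.88. Cd70, the costimulatory ligand of CD27, lay at 1.99, 2.77, 2.52, 2.49 and 2.83, against -0.43, -0.24, -0.46, -0.36 and -0.22 at rest, a 7.29-fold rise. The groups did not overlap for any of these genes. Cd200, whose receptor restrains myeloid cells, rose by 2.66, Cd40, through which T helper cells license dendritic cells, by 2.59, and the classical costimulators Cd80 by 1.86 and Cd86 by 1.15. Havcr2, the TIM-3 gene, fell by 1.02.

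Genes of dendritic cell maturation and migration rose in 9 of 16 cases and fell in 0 (median 1.18, and 1.45 against KO1). Marcksl1, an actin-binding substrate of protein kinase C, rose by 2.08, the cytokine signal inhibitor Socs2 by 2.02, the adaptor gene Samsn1 by 1.93 and the actin bundler gene Fscn1 by 1.84. Samsn1 was at 0.96 against KO1, just under the threshold. Of 11 STAT and SOCS genes 4 rose, namely Stat4, Stat2, Socs2 and Cish (1.49), and the median was 0.79, while against KO1 7 were called higher with a median of 1.24. Class I antigen loading genes rose in 4 of 16 cases (median 0.75), led by the immunoproteasome subunit gene Psmb10 (1.58) and the peptide editor gene Tapbp (1.29, and 0.87 against KO1). In the class II pathway 0 of 12 rose and 2 fell (median 0.04, and 0.29 against KO1): H2-Ob, an inhibitor of peptide exchange, by 1.24 and Ciita, the master activator, by 1.18, which was -0.27 against KO1.

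**Figure D3:**
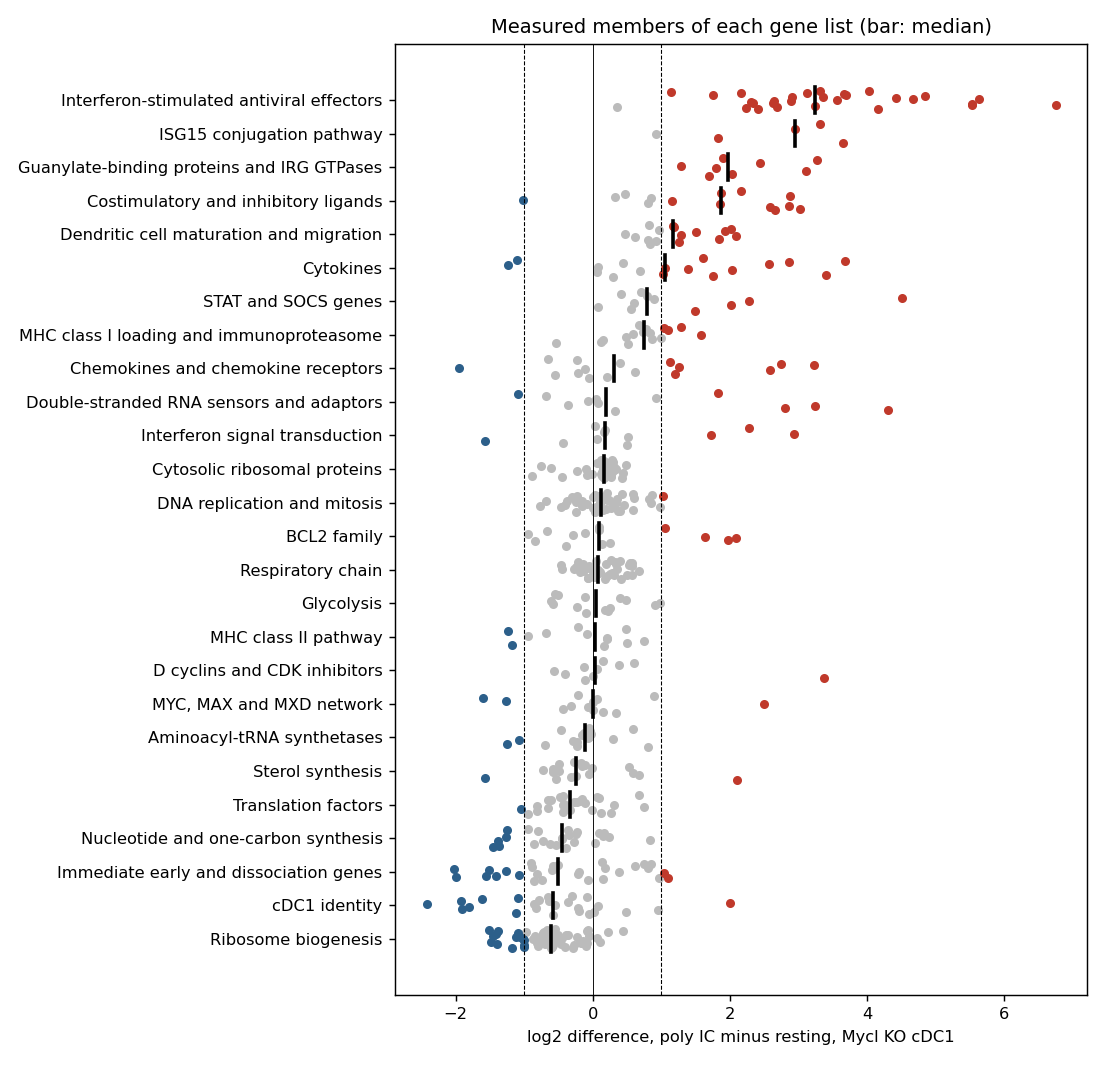
Differences in log2 level, KO3 poly IC minus KO2 resting (x axis), for 26 gene lists (y axis), with 1 dot for each gene measured, red where called higher, blue where called lower and grey otherwise. Bars mark the median of a list and dashed lines a 2-fold difference. The antiviral effectors have their median at 3.25 and ribosome biogenesis at -0.61.

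Of 25 genes of cDC1 identity 7 fell and 1 rose, with a median of -0.58 (-0.28 against KO1). Itgae, the integrin CD103, lay at 1.04, 1.16, 1.77, 1.14 and 1.41 after poly IC and at 3.61, 4.03, 3.88, 3.71 and 3.41 at rest, and fell by 2.42 (-2.38 against KO1). Fgd6, an activator of CDC42, fell by 1.91 and Notch4, a Notch receptor, by 1.93, but Notch4 was at -0.45 against KO1. The adhesion molecule gene Cadm1 fell by 1.12 (-0.61 against KO1). Ly75, the endocytic receptor DEC-205, rose by 2.00.

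Signalling regulators and surface proteins were among the 12 largest falls. Dusp6, the phosphatase that switches off ERK, lay at 0.80, 0.78, 0.22, 0.69 and 0.77 after poly IC and at 4.34, 4.25, 3.92, 4.23 and 4.03 at rest, and fell by 3.50. It was at -2.46 against KO1, whose arrays lay between 2.98 and 3.33. Map2k6, a kinase that activates p38, lay at -1.50, -1.57, -1.61, -1.23 and -1.33, against 1.93, 1.99, 1.72, 2.01 and 1.81 at rest, and fell by 3.34 (-2.55 against KO1). Entpd1, the ATP-degrading ectoenzyme CD39, lay at 0.07, 0.32, -0.02, 0.10 and 0.48 after poly IC and at 3.33, 3.29, 3.55, 3.11 and 3.34 at rest, and fell by 3.13 (-3.36 against KO1). None of these genes had a treated array within 2 log2 units of a resting one.

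Lyz2, the lysozyme gene, lay at 0.12, 0.57, 0.72, 1.08 and 0.87 after poly IC and at 3.93, 4.00, 3.72, 3.99 and 3.39 at rest, and fell by 3.13 (-3.31 against KO1). The other 8 of the 12 were the sodium-proton exchanger gene Slc9a9 (-2.93), the SLAM family receptor gene Cd244a (-2.90), the lectin gene Cd209a (-2.84), the death-associated kinase gene Dapk1 (-2.81), Pianp (-2.77), Fcrla (-2.73), the calcium channel gene Cacna1e (-2.64) and Mvb12b (-2.62), a subunit of the sorting complex ESCRT-I. Against KO1 these were -2.56, -1.64, -1.27, -2.25, -2.46, -1.67, -2.67 and -1.99, so Cd244a, Cd209a, Fcrla and Mvb12b were under a 4-fold difference there.

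Immediate early genes, which also respond to the handling of tissue, depended on the resting group. Against KO2, 7 of 29 fell and 2 rose (median -0.51), and against KO1 the median was -0.12. Jun fell by 2.03 and Egr1 by 2.00 against KO2, yet they were at -0.12 and -0.49 against KO1, since the 2 resting groups differed by 1.91 and 1.51. Egr3, a transcription factor of the same family as Egr1, was at -1.55 against KO2 and -1.80 against KO1.

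Of 13 members of the MYC and MAX network 1 rose, Mxd1 (7.69%), and 2 fell, Mxd4 and Myc (15.4%). Of all genes tested 5.36% rose and 4.94% fell. Mxd1, a MAX partner that represses, lay at 5.11, 5.26, 5.03, 5.04 and 5.07 after poly IC and at 2.85, 2.60, 2.18, 2.68 and 2.74 at rest, a 5.63-fold rise, and was 2.20 higher against KO1, whose arrays lay between 2.78 and 3.05. Mxd4, of the same family, lay at 1.00, 0.88, 1.24, 0.94 and 1.16 after poly IC and at 2.01, 2.32, 2.51, 2.24 and 2.45 at rest, and fell by 1.26 (-0.97 against KO1). Myc lay at 1.76, 1.48, 1.35, 1.49 and 1.66 after poly IC and at 2.83, 3.06, 3.34, 3.28 and 3.24 at rest, and fell by 1.60. Against KO1, with arrays at 1.93, 2.06, 2.10 and 2.18, the difference of Myc was -0.52, and KO2 stood 1.08 above KO1.

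The other 10 members were not called. Mycl averaged 0.97 ± 1.38 after poly IC and 0.07 ± 0.14 at rest, a difference of 0.90 that was 0.29 without KO3 array 3. Max, the shared partner, was at 0.34, the repressor genes Mxi1 at 0.07, Mxd3 at -0.00 and Mnt at -0.31, Mga at 0.15, and the glucose-responsive branch at 0.01 for Mlx, -0.44 for Mlxip and -0.08 for Mlxipl. Mycn, the neuronal family member, was at -0.22. The median of the 13 was -0.00 (0.03 against KO1).

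**Figure D4:**
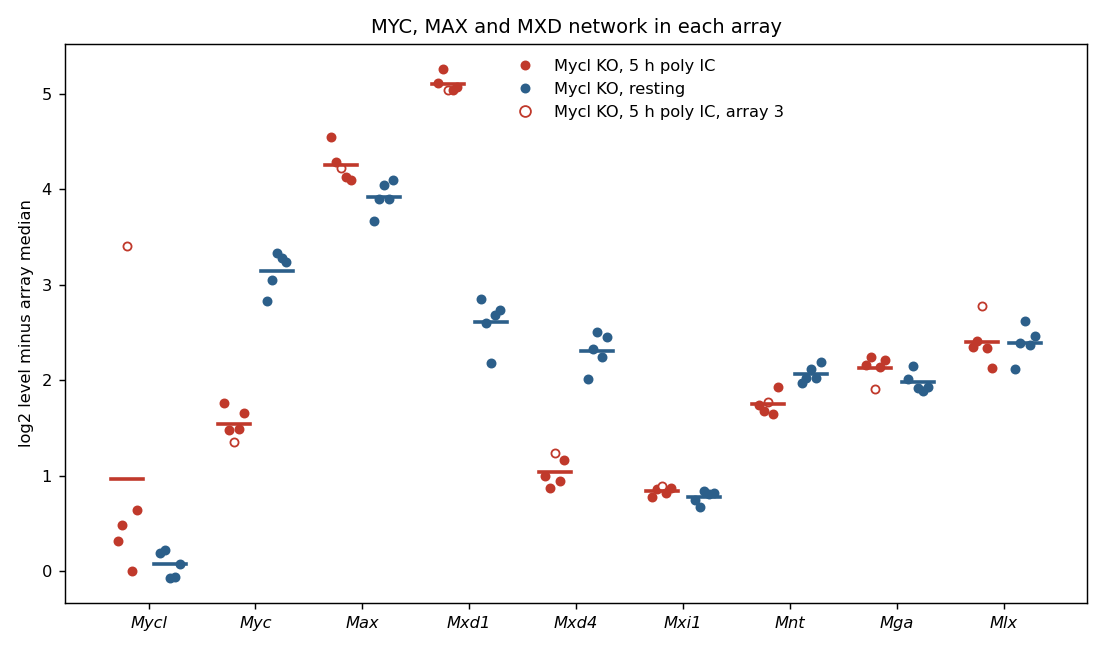
Centred log2 levels (y axis) of 9 members of the MYC and MAX network (x axis) in KO3 poly IC arrays (red, left of each pair) and KO2 resting arrays (blue, right), 5 arrays each. The open circle is KO3 array 3, which stands at 3.41 for Mycl. Mxd1 lies at 5.03 to 5.26 after poly IC against 2.18 to 2.85 at rest, and Myc at 1.35 to 1.76 against 2.83 to 3.34.

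Genes of ribosome production, the best-known MYC targets, lay mostly lower after poly IC. Of 56 ribosome biogenesis genes 14 fell, 0 rose and 52 lay below 0, with a median of -0.61 beside -0.04 for all genes tested. Against KO1 the median was -0.59 with 8 genes called lower. In Mycl+/+ cells, WT3 minus WT2, the list median was -0.23 with all arrays. Without WT3 arrays 1 and 4, which are described below, it was -0.62 with 11 genes called lower, so the fall was not particular to Mycl-deficient cells. The mean of the list was 1.434 to 1.876 in KO3 arrays and 2.171 to 2.379 in KO2 arrays. Nat10, an RNA acetyltransferase, fell by 1.48 (-1.08 against KO1), Polr1e, a subunit of RNA polymerase I, by 1.46 (-1.25) and Rrp12, a factor in export of ribosomal subunits, by 1.41 (-1.56). Wdr12, a factor of the large subunit, fell by 1.52 against KO2 and was at -0.42 against KO1. Among promoters of this list, 13 of 49 held the E-box CACGTG to which MYC and MAX bind and which reads the same on both strands (26.5%), beside 10.9% of all genes tested and 12.7% of those that fell.

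Neighbouring pathways of growth gave smaller counts. Nucleotide and one-carbon synthesis genes fell in 5 of 25 cases (median -0.44), with the purine enzyme genes Atic by 1.46 and Pfas by 1.26 (-0.81 against KO1), the folate enzyme gene Mthfd1 by 1.38 and the pyrimidine enzyme gene Cad by 1.37 (-0.74 against KO1). Of 18 aminoacyl-tRNA synthetase genes 2 fell, Farsb by 1.25 and Iars by 1.07, the second at -0.60 against KO1 (median -0.12). Of 27 translation factor genes 1 fell, Eif2b1, by 1.05 (-0.70 against KO1), and the median was -0.33 (-0.23 against KO1). The 38 cytosolic ribosomal protein genes held 0 calls, with a median of 0.17 that was -0.03 after quantile normalization of the 10 arrays together. Glycolysis (14 genes, median 0.04, -0.12 after that normalization) and the respiratory chain (42 genes, median 0.08) also held 0 calls. In sterol synthesis 1 of 19 rose, Ch25h, whose product 25-hydroxycholesterol is antiviral (2.11), and 1 fell, Dhcr7 (-1.57, and -0.79 against KO1). Each is 5.26% of that list, near the 5.36% and 4.94% of all genes tested.

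Of the cell cycle lists 2 genes rose, 1 of them by far the more. Ccnd2, the gene of cyclin D2, lay at 7.10, 6.89, 6.87, 6.81 and 6.96 after poly IC and at 3.44, 3.28, 3.20, 3.83 and 4.00 at rest, a 10.4-fold rise. It was the 1 call among 10 D cyclins and CDK inhibitors, of which Ccnd1 was at -0.12 and Ccnd3 at 0.01 (median 0.03, -0.08 after quantile normalization and 0.34 against KO1). Of 42 genes of DNA replication and mitosis 1 rose (2.38%, below the 5.36% of all genes tested), and the median was 0.13. That gene was the clamp loader gene Rfc3, at 1.03 (0.96 without KO3 array 3, under the threshold). In the BCL2 family 4 of 14 rose on both sides of cell survival: Bcl2l11, which encodes the killer BIM, by 2.09, Bcl2l1, which encodes the protector BCL-XL, by 1.98, Bcl2l14 by 1.63 and the protector gene Mcl1 by 1.06. The median of that family was 0.09 (0.43 against KO1).

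Markers of other cell types were counted as well. Not all that were measured passed the filter. Tested were 6 of 8 neutrophil, 12 of 14 monocyte and macrophage, 8 of 9 plasmacytoid and 8 of 11 cDC2 markers. For B cells it was 6 of 10, for T and natural killer cells 10 of 15 and for erythroid cells 1 of 2. Of 8 neutrophil markers 4 rose: the granule genes Ngp (4.27) and Camp (2.90) and the calprotectin genes S100a8 (2.71) and S100a9 (2.53). Ngp lay at 2.07, 3.67, 2.00, 4.40 and 3.08 after poly IC, against -1.22, -1.30, -1.22, -1.18 and -1.19 at rest, and Camp at 1.86, 3.12, 1.86, 4.02 and 2.14 after poly IC, against -0.31, -0.36, -0.28, -0.26 and -0.30 at rest. The treated arrays thus varied far more than the resting ones, and arrays 2 and 4 were highest in both genes. The neutrophil surface gene Ly6g was below the filter level, at -1.69 ± 0.05 after poly IC and -1.74 ± 0.08 at rest. Csf3r, a growth factor receptor of these cells, was at -0.73 ± 0.15 after poly IC and -0.72 ± 0.10 at rest, and the mean of all 8 was 0.282 to 1.360 in KO3 arrays and -1.035 to -0.907 in KO2 arrays. The part of such cells in other results was not tested.

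Monocyte and macrophage markers rose in 2 of 14 cases, Spic, a red pulp macrophage factor (2.82), and Fcgr1 (1.40), and fell in 2, Lyz2 and Ccr2. Plasmacytoid markers rose in 2 of 9, Bst2, also an interferon-stimulated gene (2.42), and Pacsin1 (1.34), and fell in 1, Ccr9 (-1.71), while their defining gene Siglech was at 0.05 ± 0.07 after poly IC and 0.21 ± 0.23 at rest. Markers of cDC2 fell in 2 of 11, Cd209a and Cd7 (-1.39), of which Cd7 was at -0.03 against KO1. B cell markers had 1 fall among 10, Cd22 (-1.01), which was at -0.98 without KO3 array 3 and -0.37 against KO1, under the threshold in both. T and natural killer cell markers had 1 rise, the granzyme gene Gzmb (2.25), among 15 measured and 10 tested. That is 6.67% of those measured, whereas the 5.36% of all genes is a share of those tested. Erythroid markers had 0 calls among 2. Against KO1 the medians were -0.03 for cDC2, 0.10 for plasmacytoid, 0.32 for T and natural killer and 0.09 for erythroid markers, and against KO2 they were -0.40, 0.23, -0.05 and 0.37.

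The question whether Mycl-deficient and Mycl+/+ cells responded alike was addressed with WT3 and WT2. In Mycl+/+ cells 386 genes rose and 319 fell under the same rule (2.79% and 2.31%, 5.1% together). The filter stayed the one set on KO3 and KO2 arrays, so a gene below it in most of those arrays could not be called in Mycl+/+ cells. The Mycl+/+ lists, and the shares of them given below, hold only genes that passed in Mycl-deficient arrays. Arrays 1 and 4 of WT3 stood apart: their Ifit1 was 0.57 and 1.78, against 5.31, 5.29 and 5.75 in arrays 2, 3 and 5, and their mean over the antiviral effectors 1.643 and 2.728, against 4.318, 4.268 and 4.534. KO3 arrays correlated at 0.932 to 0.968 with these 2 arrays and at 0.988 to 0.994 with the other 3. Leaving both out, a choice made after their values were seen, 751 genes rose and 622 fell in Mycl+/+ cells (5.44% and 4.5%, 9.94% together). Of the rises in Mycl-deficient cells 628 were then also rises in Mycl+/+ cells, 84.8% of the first list and 83.6% of the second, and of the falls 536, 78.6% and 86.2%. With all 5 WT3 arrays the shared rises were 360 (48.6% and 93.3%) and the shared falls 291 (42.7% and 91.2%). Both comparisons span the same 2 sets, so a shift between sets would be in both lists.

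A shift between sets cancels in the difference of KO3 minus WT3 and KO2 minus WT2, each taken within a set. By limma's test over 14206 genes and 20 arrays, 7 genes passed (0.0493%), of which 6 had the higher shift in Mycl-deficient cells and 1 the lower. An unadjusted p under 0.05 was found for 1761 genes, a larger share than the 0.05 of genes that such a threshold gives where none differs. Without WT3 arrays 1 and 4 the count was 44 (0.31%), 34 higher and 10 lower, and without KO3 array 3 it was 5 (0.0352%). Without WT3 array 5 alone it was 41, and leaving out others brought it as low as 1. Mycl, with KO3 array 3 included, was at 1.07 ± 0.57 (SE, limma adjusted p = 0.439).

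Gzmb, the serine protease of cytotoxic granules, lay at 1.16, 1.16, 0.89, 0.94 and 0.94 in Mycl-deficient and -0.53, -0.09, -0.01, -0.28 and 0.52 in Mycl+/+ cells after poly IC. At rest it lay between -1.32 and -1.14 in Mycl-deficient and between -1.25 and -1.05 in Mycl+/+ cells. Its shift was larger by 1.15 ± 0.18 (limma adjusted p = 0.0196, and 0.00238 without WT3 arrays 1 and 4), and every treated Mycl-deficient array was above every Mycl+/+ one. Acod1, which makes itaconate, shifted by 1.08 ± 0.19 more (adjusted p = 0.0472, and 0.0325 without those 2), with 1.05 to 1.86 in Mycl-deficient and 0.16 to 0.77 in Mycl+/+ cells after poly IC. Ccl4, a chemokine, shifted by 0.85 ± 0.16 more (adjusted p = 0.0472, and 0.0395 without those 2), and lay at 3.08 to 3.53 in Mycl-deficient and 2.18 to 2.70 in Mycl+/+ cells after poly IC. Without KO3 array 3 the limma adjusted p was 0.0316 for Gzmb, 0.0344 for Acod1 and 0.0640 for Ccl4, so the last was lost there. Gzmb was lost without some other single arrays (limma adjusted p = 0.0527 without WT3 array 2). Acod1 was lost without most of them (0.106 without KO3 array 2). Of the genes that passed, only Adam23 did so whichever array was left out, and with the replicate number as a block it missed (limma adjusted p = 0.0539).

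Adam23, a disintegrin family member, lay at 3.49, 3.95, 3.71, 3.69 and 3.56 in Mycl-deficient cells after poly IC, below Mycl+/+ cells at 4.60, 4.38, 4.29, 4.37 and 4.27. At rest the ranges overlapped, with 4.68 to 4.78 in Mycl-deficient and 4.37 to 4.77 in Mycl+/+ cells. Its shift was lower by 0.84 (limma estimate -0.84 ± 0.12, adjusted p = 0.00824, and 0.00272 without WT3 arrays 1 and 4). Adgrf5, an adhesion receptor, ended near the same level in both genotypes after poly IC, between -1.39 and -1.26 in Mycl-deficient and between -1.65 and -0.92 in Mycl+/+ cells. Such levels are about as low as that of Ifi44l after poly IC, which was below the filter level. The bottom of the array may thus bound both falls of Adgrf5. Its shift difference of 1.46 ± 0.24 (limma adjusted p = 0.0282, and 0.00154 without WT3 arrays 1 and 4) came with resting levels of 0.11 to 0.45 in Mycl-deficient and 0.87 to 2.07 in Mycl+/+ cells.

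The remaining calls were Mmp19, a matrix metalloproteinase gene, at 0.94 ± 0.17 and Gas1, a hedgehog coreceptor gene, at 0.36 ± 0.07 (limma adjusted p = 0.0472 each). Both were lost without KO3 array 3 (adjusted p = 0.0676 each), while Adam23 and Adgrf5 still passed there (0.0213 and 0.0473). Gas1 was also lost without WT3 arrays 1 and 4 (adjusted p = 0.0593). For both genes the resting levels differed as well. Mmp19 averaged -0.47 in resting Mycl-deficient and -0.04 in resting Mycl+/+ cells, and 0.62 and 0.11 after poly IC. Gas1 averaged 0.025 and 0.222 at rest, and 0.383 and 0.218 after poly IC. Mmp19 rose by 1.09 against KO2 in Mycl-deficient cells but was at -0.02 against KO1. Without WT3 arrays 1 and 4 Ifnb1 passed too, with a shift larger by 1.28 ± 0.27 in Mycl-deficient cells (adjusted p = 0.0395, against 0.0647 with all arrays), and Myc, with a shift of -0.83 ± 0.17 (adjusted p = 0.0395, against 0.0876). With KO3 array 3 left out as well, Ifnb1 still passed (adjusted p = 0.0338) and Myc did not (adjusted p = 0.0532). Ifnb1 lay at 1.60 to 2.80 in Mycl-deficient cells after poly IC, against -0.09, 0.76, 0.63, 0.16 and 1.30 in Mycl+/+ cells. Myc lay at 2.83 to 3.34 in resting Mycl-deficient and 1.51 to 2.13 in resting Mycl+/+ cells.

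The interferon-stimulated genes that rose most did not pass this test. The shift of Ifit1 differed by 1.87 with all arrays (limma adjusted p = 0.425) and by 0.16 without WT3 arrays 1 and 4 (adjusted p = 0.806), which does not show that the genotypes responded alike. Of the 741 genes that rose in Mycl-deficient cells, 3 passed the test of the shift difference with all arrays and 15 without WT3 arrays 1 and 4. Of the 682 that fell, 2 and 5 passed. Among all 14206 genes 7 and 44 passed (0.0493% and 0.31%), a smaller share than in either list. The lists and the test use the same Mycl-deficient arrays, so they are not independent.

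**Figure D5:**
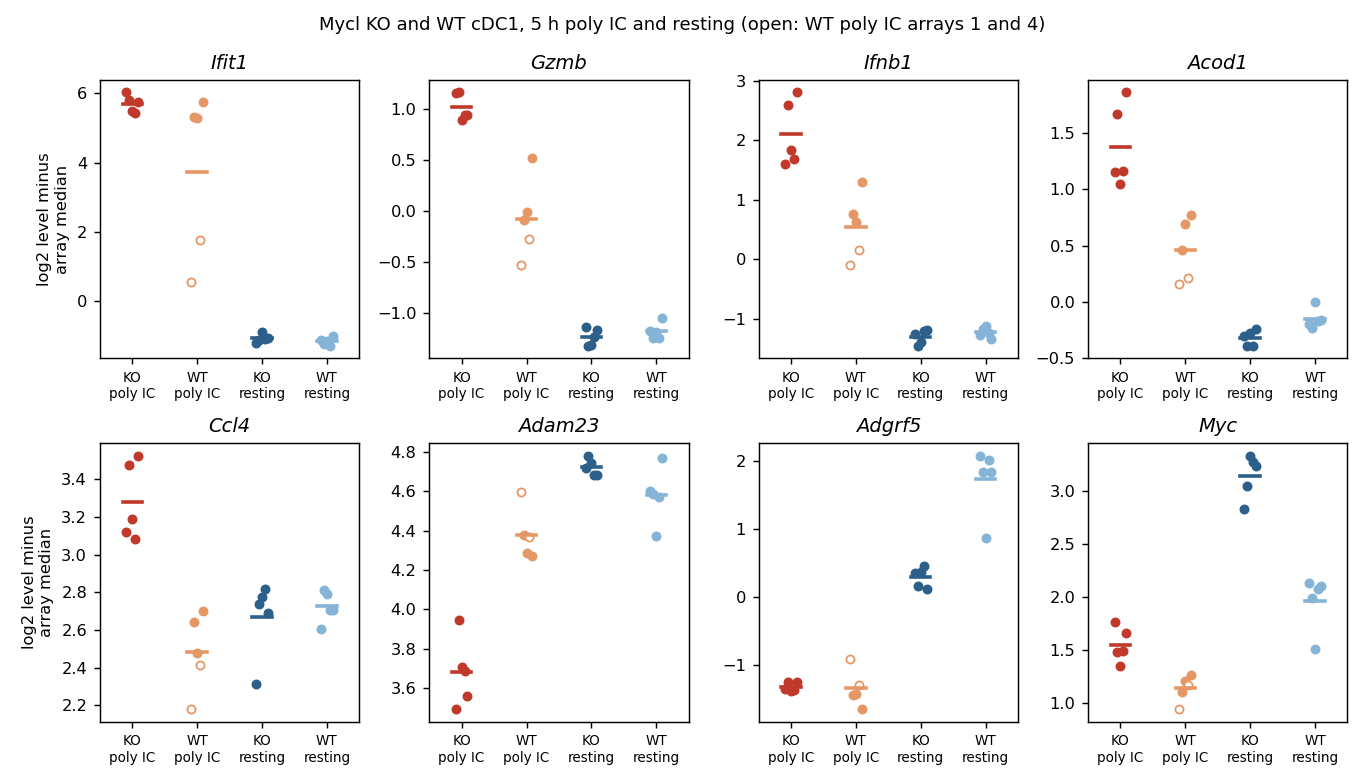
Centred log2 levels (y axis) of 8 genes in Mycl-deficient and Mycl+/+ cells after poly IC and in Mycl-deficient and Mycl+/+ cells at rest, left to right in each panel, with 1 point for each of 5 arrays and a line at the mean. Open points are WT3 arrays 1 and 4, whose Ifit1 was 0.57 and 1.78. Gzmb lies at 0.89 to 1.16 in Mycl-deficient and -0.53 to 0.52 in Mycl+/+ cells after poly IC.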

How the data were processed

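The deposited values are log2 expression per transcript cluster of an Affymetrix whole-transcript array, made with RMA in Affymetrix Expression Console per the submitters' processing notes; the version is not given in the sources used here. RNA was amplified with the WT Pico kit, per the labels' protocols. Of 35556 clusters 21789 had 1 gene symbol, 1621 several and 12146 were not listed. The cluster with the highest mean stood for each of 953 genes with several, and 748 genes on chromosomes X and Y were left out, leaving 19108. Each array was centred on its median. Genes at or above the 30th percentile in at least 5 of the 10 arrays were tested.

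KO3 was set against KO2 by the 2-fold and no-overlap rule without a p-value. The difference between the shifts of the 2 genotypes was tested with limma 3.58.1 in R 4.3.3 (lmFit and eBayes, Benjamini-Hochberg over all genes, threshold 0.05), which was tested on simulated data. The labels name biological replicates without saying whether they were separate mice, so p-values measure only the spread between these samples, and the number of arrays limits the precision.

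The comparison, the gene lists and the rule for named genes were chosen with earlier results of these data known. The rule named the 12 largest rises and 12 largest falls that were also called without KO3 array 3 and lay at least 2-fold the same way against KO1 (850 genes met this), up to 4 members of each list with the largest difference, all of the MYC and MAX network, Mycl, and the 10 genes with the smallest adjusted p for the shift difference. Other list members named were picked as examples after their values were seen. Promoter sequences are those of RefSeq for GRCm38.p6. Alternatives were another resting group, scaling, filter, fold and fit settings, and arrays left out.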

Additional observations from a re-analysis of the deposited data

Results flagged for a closer look

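Within the 5 arrays of a group, a single array lay far from the other 4 in 16 of 320 groups looked at (160 named genes, 2 groups each), which is 5.0%, while chance gives about 1 in 20. In KO3 arrays these were Mycl at 3.41 in array 3 (others 0.01 to 0.64), Iars at 3.18 in array 3 (2.52 to 2.62), Dusp6 at 0.22 in array 3 (0.69 to 0.80), Fgd6 at 0.90 in array 1 (1.11 to 1.19), Polr1e at -0.0777 in array 1 (0.22 to 0.31), Cd3e at -0.11 in array 1 (0.24 to 0.34) and Ier3 at 0.68 in array 5 (0.30 to 0.36). In KO2 arrays they were Slc9a9 at 5.22 (5.36 to 5.39), Ube2l6 at 2.35 (1.72 to 1.85) and Cd79b at 0.42 (0.29 to 0.31) in array 5, Gbp9 at 2.14 (2.62 to 2.69) and Cdkn2d at 1.18 (1.39 to 1.45) in array 3, Rps15a at 2.63 (3.07 to 3.17) and Ccl4 at 2.31 (2.69 to 2.82) in array 1, Atic at 2.83 in array 4 (2.64 to 2.70) and Pfkp at 5.11 in array 2 (4.84 to 4.91).

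The poly IC shift differed between Mycl-deficient and Mycl+/+ cells by limma's test in 7 genes, by 1.15 for Gzmb, -0.84 for Adam23, 1.46 for Adgrf5, 1.08 for Acod1, 0.94 for Mmp19, 0.85 for Ccl4 and 0.36 for Gas1. Of these, 6 also passed without WT3 arrays 1 and 4. Why WT3 arrays 1 and 4 had low interferon-stimulated transcripts, and KO3 array 3 a high Mycl, was not tested.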

How the results depend on the processing

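Leaving out 1 array at a time gave 714 to 761 rises and 632 to 735 falls. Counts were 187 and 52 at 4-fold and 1544 and 2029 at 1.5-fold. Without KO3 array 3 the rises by list were 9 (cytokines), 5 (class I), 3 (immediate early), 5 (neutrophil) and 0 (DNA replication). The falls were then 15 (ribosome biogenesis), 2 (translation factors) and 0 (B cell), and the other lists kept their counts. Medians without that array included -0.0063 (respiratory chain) and -0.2253 (aminoacyl-tRNA synthetases). With KO1 as the resting group and the filter set on those arrays, 425 genes fell. All-gene medians were -0.114 without centring, 0.031 by the 75th percentile and -0.042 by quantile normalization. Of the called genes named by the rule, Mmp19 alone changed sign in any setting run, to -0.0169 against KO1, and Tnf, named as an example, was at 0.47 against KO1. List medians that moved were, against KO1, 3.48 (antiviral effectors), 0.40 (interferon signal transduction), 0.58 (RNA sensors), 2.40 (GTPases), 1.48 (costimulation), 1.45 (maturation), 1.24 (STAT and SOCS), 0.29 (class II), -0.28 (identity), -0.23 (translation factors), 0.34 (D cyclins), 0.43 (BCL2 family), -0.12 (immediate early), -0.0332 (cDC2), 0.10 (plasmacytoid), 0.32 (T and NK) and 0.0941 (erythroid). After quantile normalization they were 0.94 (maturation), 0.54 (class I), -0.78 (identity), -0.0337 (ribosomal proteins), -0.42 (translation factors), -0.12 (glycolysis), -0.0761 (D cyclins) and 0.0169 (BCL2 family). Without centring they were 0.68 (class I), -0.65 (identity), 0.0148 (BCL2 family) and 0.0539 (B cell). By the 75th percentile they were 0.82 (class I), -0.51 (identity) and 0.16 (BCL2 family), and by the mean of a gene's clusters -0.0568 (D cyclins). The cause of these moves was not tested.

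The 7 shift differences numbered 1 to 41 when 1 array was left out. They were 41 without WT3 array 5, 11 without KO2 array 4 or KO3 array 1, 4 without WT2 array 3, 2 without KO2 array 1 or 5, WT2 array 2 or 4 or KO3 array 5, and 1 without KO2 array 2 or 3, WT2 array 1 or 5, WT3 array 2 or 4 or KO3 array 2. They were 11 with trend and robust fitting, 67 with array weights, 3 without centring and 3 without the filter. Without WT3 arrays 1 and 4 they were 44, and 37 when KO3 array 3 was left out as well. With the replicate number as a block they were 4, and 34 without WT3 arrays 1 and 4, but the numbers share only a name, since same-numbered arrays correlated at -0.355 to 0.348. The 705 calls in Mycl+/+ cells were 1373 without WT3 arrays 1 and 4. Calls across the sets were kept to large shifts, but a shift between the sets of KO3 and KO2 was not measured and may be part of any of them. Signals near the bottom of the array bound the size of falls. Of the genes called, 41 that fell had every KO3 array, and 68 that rose every KO2 array, below the filter level.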

Other observations

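Large shifts outside the lists, picked after their values were seen, included receptor, ligand and caspase genes. Il23r, the interleukin 23 receptor gene, was at 2.93 ± 0.30 after poly IC and -1.51 ± 0.31 at rest in Mycl-deficient cells, a rise of 4.44 (4.30 against KO1). Tnfsf15, a ligand that costimulates T cells, rose by 4.00, Axl, a receptor kinase that restrains interferon responses, by 3.60, Kdr, a receptor for vascular growth factors, by 3.64, Casp4, the caspase that senses bacterial lipopolysaccharide, by 3.82 and Il2ra, the CD25 gene, by 2.85. The cluster named Mir155, a microRNA gene of activated immune cells whose host transcript it cannot be told apart from, rose by 2.99. Against KO1 these 6 were at 4.01, 4.15, 3.69, 3.63, 2.66 and 2.98.

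Several falls were of a like size against both resting groups. Elovl6, which lengthens fatty acids, was at -0.61 ± 0.10 after poly IC and 1.71 ± 0.18 at rest and fell by 2.32 (-2.10 against KO1). Scd2, which desaturates them, fell by 2.14 (-1.91 against KO1) and Lpin1, which makes diacylglycerol, by 2.28 (-2.01 against KO1). The receptor genes Tlr12 and Fcgr2b, which recognise profilin and immune complexes, fell by 2.35 and 2.01 (-2.68 and -2.18 against KO1). Lcn2, a neutrophil granule gene outside the marker list, rose by 3.25 and lay at 1.52, 2.30, 1.10, 3.12 and 2.38 in treated arrays, highest in array 4 as Ngp and Camp were.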
